A study of Mus musculus with 2 samples.

Results

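The Sfmbt2 cluster is an array of microRNA (miRNA) genes that lies inside an intron of Sfmbt2 on mouse chromosome 2. Its members were taken by position as the gene IDs of the deposited tables that the GENCODE M21 annotation types as miRNA and places wholly within Sfmbt2, on its plus strand. The rule gave 119 members among the 2202 miRNA genes of the tables (5.40%), and no measured value entered it. The counts come from microRNA-seq of total RNA, with inserts under 30 nt, from hearts of 10-day-old female mice. The mice were B6CASTF1/J, a cross of C57BL/6J with CAST/EiJ taken at the F1 generation. They form 1 group of 2 hearts, labelled biological replicates 1 and 2, and no treatment is named. The labels give each heart its own biosample and animal number but the same donor ID, and each heart gave 1 library. With 1 tissue, age and sex there was no contrast between conditions, so the data describe levels in the heart and how far the 2 hearts differed. Counts were not split by allele, so the parental origin of the reads was not analysed here.

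Sfmbt2 encodes a Polycomb group protein and is known as an imprinted gene expressed from the paternal allele, with its best-studied role in the placenta. Its large intron carries a rodent-specific array of related miRNA genes, the miR-297, miR-466, miR-467 and miR-669 families, which arose by repeated local duplication. A miRNA gene is transcribed as part of a longer RNA, the hairpin is cut out, and a short mature strand is loaded into an Argonaute protein, where its seed, bases 2 to 8, guides it to target mRNAs.

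The members span 52.993 kb (chr2:10465287-10518279, mm10), from 94.777 to 147.769 kb after the annotated start of Sfmbt2 (ENSMUSG00000061186.15, chr2:10370510-10595253). All 119 lie in 1 intron of 62.472 kb (chr2:10461473-10523944), which is intron 10 of 1 protein-coding transcript and intron 11 of another. None overlaps an exon of any of the 7 annotated host transcripts. Starts of neighbouring members lie a median of 294 nt apart (196 to 2673 nt). By name the array holds 29 Mir669, 23 Mir466, 14 Mir467 and 5 Mir297 genes, and 48 genes with only a provisional Gm symbol. Of those 48, 44 have a Mir669 hairpin as their nearest named member, 31 of them at 90% identity or more. The array is periodic, since the 10 Mir467a copies start a median of 2.462 kb apart (2.413 to 4.88 kb).

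The families are rich in alternating purine and pyrimidine bases, and mature forms of family genes outside Sfmbt2 show that make-up. Of 10 such genes, 8 had a mature sequence in RefSeq (GRCm38.p6), and 0 of the 119 members had one there. The 5 below carry the 4 seeds whose letters occur in the most member hairpins and the 1 that occurs in the fewest. They are written 5′ to 3′ with the seed in capitals.
miR-467g: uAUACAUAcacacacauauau
miR-466j: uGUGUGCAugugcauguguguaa
miR-466i-3p: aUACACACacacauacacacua
miR-466k: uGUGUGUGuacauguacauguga
miR-467h: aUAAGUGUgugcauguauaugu
These forms come from chr5:34732872-34732892 (minus strand), chr10:60960802-60960824, chr13:17747552-17747573, chr3:85467396-85467418 and chr9:115381898-115381919 (plus strand for the last 4). Each of these 5 genes had 0 counts in both hearts.

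The letters of each seed were searched on the gene strand of all miRNA hairpins, and a match says only that the letters are present, not that the gene makes a mature form with that seed. AUACAUA occurred in 78 members (65.5%) against 3.12% of the other hairpins, and in 5 of the 7 members that were detected in these hearts, led by Mir467d. GUGUGCA occurred in 62 members (52.1%, others 2.11%), and 5 of the detected members held it. UACACAC occurred in 60 members (50.4%, others 5.76%), among them all 7 detected members. GUGUGUG occurred in 50 members (42.0%, others 7.68%) and in 4 detected members, of which Mir669o had the highest level. UAAGUGU occurred in 1 member, Mir467e (0.840%, others 0.624%). Some of the seeds overlap in letters, and none of the 8 mature forms was found whole in a member hairpin.

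Over whole hairpins, steps from a purine to a pyrimidine or back, leaving out CG and GC, made up a median of 75.6% of all dinucleotide steps in members and 34.4% in the other miRNA genes. Member hairpins had a median GC content of 37.3% (29.0% to 43.4%), below the lower quartile of 44.5% of the other hairpins (median 51.7%). Their median length was 98 nt against 89 nt. The 119 members comprised 88 distinct hairpin sequences, and 47 members had an identical copy, the largest set being 9 genes that include Mir669a-4. A run of 22 nt or more, about the length of a mature miRNA, was shared with another miRNA hairpin by 117 members, all but Gm22239 and Mir466g.

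This likeness bears on what the tables can hold, because reads that align to several positions are tallied in a category of their own and credited to no gene. This category held 4193785 reads in replicate 1 (38.9% of 10782737) and 3872896 in replicate 2 (38.0% of 10201509), or 599 and 659 multimapping reads for every count on the cluster. How many of them came from the cluster was not tested. Counts and hairpin sequences rest on the mm10 reference. Whether the CAST/EiJ allele of these F1 mice differs from it in the cluster, in sequence or in copies, was not examined. The levels and 0 counts of members carry this limit too. Reads assigned to named miRNA genes numbered 4260561 and 4583025, and an observed 0 is compatible with as many as 3 counts, or 0.704 and 0.655 CPM (reads scaled to the same library total). By a chi-square test over the genes whose counts summed to at least 20, the libraries were not repeats of each other (301070 on 374 degrees of freedom). The marker miRNAs of heart tissue were abundant: the cardiac list (Mir208a, Mir208b, Mir499) summed to 9644 and 6536 CPM. Of 6 neuronal markers, 5 were at 0 in both hearts. They are numbered copies, Mir9-1 to Mir9-3 and Mir124a-1 to Mir124a-3, and reads shared by copies are credited to no gene. Their 0 counts therefore cannot show that neuronal RNA was absent.

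The cluster was credited with a small share of the counts in both hearts. It held 7006 counts in replicate 1 and 5880 in replicate 2, which is 0.164% (exact Clopper-Pearson 95% interval 0.161 to 0.168) and 0.128% (0.125 to 0.132) of the counts on named genes. The mean was 0.146% ± 0.0256 (SD, n = 2), and replicate 1 was the higher. These intervals hold counting error alone, as the labels describe no molecular identifiers. In whole tissue fewer expressing cells and less RNA per cell cannot be told apart. The share also leaves out any multimapping reads from the cluster, so its full level is not known. All of the reads counted on members lay on the strand of Sfmbt2, and 0 lay on the opposite strand of any member.

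Few members were credited with these counts. Of the 119 members 7 (5.88%) were detected, meaning 10 or more counts in both hearts, against 15.7% of all genes in the tables (346 of 2202). In 54 of the 119, every 22-nt stretch of the hairpin also occurred at another miRNA locus, as described below. Reads from these 54 could hardly be credited to them, so the 7 do not show how many members were expressed. The 7 held 99.4% of the cluster's counts in replicate 1 and 99.8% in replicate 2. A further 10 members had a count in at least 1 heart, 40 and 10 counts in all, and apart from Mir669h none of them exceeded 5. The other 102 members (85.7%) had 0 counts in both hearts, as did 65.1% of the table.

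The detected members belonged to the miR-467 family (3 of 14) and the miR-669 family (4 of 29). Hairpins with no 22-nt stretch of their own made up 10 of the 14 and 13 of the 29. The miR-467 genes summed to 4083 and 4153 counts, 58.3% and 70.6% of the cluster, or 932 ± 36.9 CPM. The miR-669 genes summed to 2905 and 1718 counts, 41.5% and 29.2% of the cluster, or 528 ± 217 CPM. None of the 23 Mir466, 5 Mir297 and 48 Gm members reached the detection minimum. The Mir466 genes summed to 9 and 5 counts, the Mir297 genes to 4 and 3, all on Mir297a-2, and the Gm genes to 5 and 1. Individual functions of the detected members in heart are not assigned here, since the families are named by sequence.

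Mir467d (ENSMUSG00000077021.2, chr2:10507630-10507714) was the highest member, with 2171 counts in replicate 1 and 2945 in replicate 2, or 509.6 and 643 CPM. Its mean of 576 ± 94.1 CPM ranked 89 of the 2202 genes, and 74.3% of all detected genes were lower. Mir467e (chr2:10505721-10505807), a close relative by sequence, had 1619 and 977 counts, a mean of 297 ± 118 CPM and rank 118. Both genes lie within 2 kb of each other toward the far end of the array.

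Mir669o (chr2:10514300-10514395) and Mir669c (chr2:10509296-10509404) came next, at close levels. Mir669o had 1161 and 770 counts, a mean of 220.3 ± 73.9 CPM. Mir669c had 1126 and 673 counts, a mean of 206 ± 83.0 CPM. Mir669o was the higher of the pair in both hearts, by a small margin.

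The remaining detected members lie at the near end of the array and were lower. Mir669l (chr2:10468971-10469068) had 454 counts in replicate 1 and 230 in replicate 2, a mean of 78.4 ± 39.9 CPM. Mir467c (chr2:10473931-10474027) had 292 and 231 counts, a mean of 59.5 ± 12.8 CPM. Mir467c was below Mir669l in replicate 1 and 1 count above it in replicate 2. Mir669e (chr2:10467495-10467613) was the lowest, with 143 and 44 counts and a mean of 21.6 ± 16.9 CPM, rank 235. The median detected member stood at 206 CPM, and 4 of the 7 lay above the median of all detected genes, 85.1 CPM. CPM were not divided by hairpin length, since a read is a whole short RNA, and unequal ligation of different sequences enters every comparison of levels between genes.

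**Figure D1:**
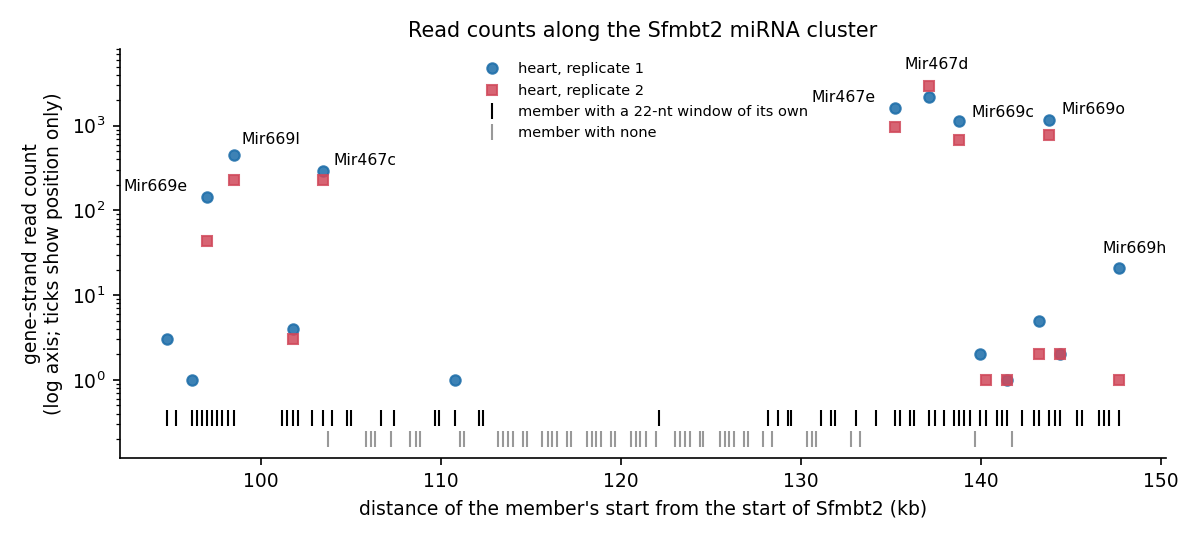
Gene-strand read counts (log axis) of each member with a count, plotted by the distance of its start from the start of Sfmbt2 in kb, as circles for replicate 1 and squares for replicate 2. Ticks at the bottom mark all 119 members, black for the 65 with at least 1 own 22-nt window and grey for the 54 with none. Counts sit in 2 stretches at the ends of the array, and between Mir467c and Mir467e there is 1 count in all.

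Counts lay at the ends of the array. The first 17 members, up to and including Mir467c, held Mir669e, Mir669l and Mir467c, and the last 30, from Mir467e on, held Mir467e, Mir467d, Mir669c and Mir669o. The 72 members between Mir467c and Mir467e, over 31.693 kb, had 1 count in replicate 1, on Mir467b, and 0 in replicate 2. The plot of counts along the cluster shows that most members with no sequence of their own also lie there.

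To describe the repetition, each hairpin was cut into all windows of 22 nt, and a window was called the gene's own if it occurred at no other of 2168 miRNA loci on either strand. This measure was chosen after the counts had been seen. No own window was left in 54 members (45.4%), against 11.7% of the other miRNA genes, and 52 of the 54 lie in the middle stretch. All 54 had 0 counts in both hearts. Among them are the 10 Mir467a copies, each of which shares a run of 73 or 83 nt with another hairpin. By family, 22 of the 48 Gm, 13 of the 29 Mir669, 10 of the 14 Mir467, 9 of the 23 Mir466 and 0 of the 5 Mir297 genes had no own window. Each of the 17 members with a count was among the 65 that had one. This, and the 0 counts of the 54, follow largely from the counting rule, since reads that align to several positions are credited to no gene.

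Among the other miRNA genes of the table, detection went up with the share of own windows. With no own window 1 of 243 was detected (0.412%), with some windows shared 54 of 672 (8.04%), and with all windows their own 284 of 1168 (24.3%). Among members, 0 of 54, 7 of 63 (11.1%) and 0 of 2 were detected in the same 3 classes. These shares are descriptions with no test, since members share sequence, host intron and libraries, and the same counting rule bears on them.

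Own sequence did not go with counts throughout. The detected members had from 39.1% own windows in Mir467d, the most abundant, to 96.9% in Mir669e, the least abundant, with a median of 59.1%. Between these lay Mir669l (53.2%), Mir669o (58.7%), Mir467e (59.1%), Mir467c (63.2%) and Mir669c (83.0%). Yet 48 members with an own window had 0 counts in both hearts, 26 of them at or above the share of Mir467d. Of these, 9 had 80% or more own windows, among them the named genes Mir466g (100%), Mir669b (89.5%) and Mir466l (89.0%). Most 22-nt stretches of these 9 have no exact match at another miRNA locus, though near matches were not counted. Why these 9 genes had 0 counts was not tested. Matches elsewhere in the genome were not searched.

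**Figure D2:**
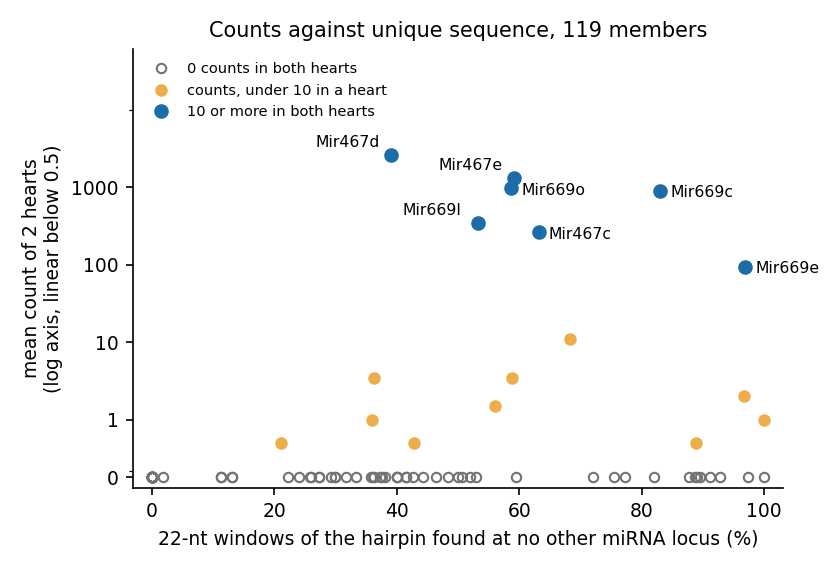
Mean count over both hearts (log axis, linear below 0.5) of each of the 119 members against the percent of its 22-nt hairpin windows found at no other miRNA locus. Members at 0% all have 0 counts, which follows largely from the counting rule. Members above 39% include the 7 detected genes and 26 genes with 0 counts.

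The longest run that a detected member shares with another hairpin shows where its reads could also be placed. Mir467d shares 60 nt with 10 genes, Mir467a-10 among them, and 19 of its 25 own windows (of 64) lie nearer its 5′ end. Mir669l shares 57 nt with Mir669d, and Mir467e and Mir467c share 48 nt with each other. Mir669o shares 38 nt with 12 genes and Mir669c 36 nt with Mir669a-3. Mir669e shares the shortest run, 24 nt with Gm27361. Reads from such runs could count toward no gene, so the levels of these members are uncertain.

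Between the hearts the detected members moved apart, Mir467d one way and the others the other way. Every gene whose counts summed to at least 20 was compared between the libraries by an exact two-sided binomial test given their TMM effective sizes, with Benjamini-Hochberg adjustment over all 375 genes tested. With 1 library per heart, this compares 2 libraries beyond counting error and says nothing of a condition. Of the 119 members, 8 were tested and all 8 passed at 0.05, against 55.2% of all genes tested. In replicate 1, 7 were higher, against 29.1% of all genes tested. In replicate 2, 1 was higher, against 26.1%. These tallies include Mir669h, which reached the minimum only through its 21 counts in replicate 1 and so had to differ. With a summed count of 100 or more, which leaves it out, 7 members were tested and 7 passed, 6 of them higher in replicate 1. The median log2 ratio of replicate 2 over replicate 1 was -0.77 for the 8 members, -0.77 for the 7 without Mir669h, and -0.02 for all genes tested, whose quartiles were -0.37 and 0.37. Members lie in 1 intron and share sequence, so they are not independent of each other.

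Mir467d was 1.32-fold higher in replicate 2 (log2 ratio 0.40, exact 95% interval 0.32 to 0.48, exact binomial test with Benjamini-Hochberg adjusted p = 2.47e-22). Its neighbour Mir467e was 1.70-fold higher in replicate 1 (log2 ratio -0.77, -0.88 to -0.65, exact binomial adjusted p = 7.71e-40). Mir669c, next after Mir467d among the detected genes, was 1.72-fold higher in replicate 1 (-0.78, -0.92 to -0.64), and Mir669o 1.55-fold (-0.63, -0.76 to -0.50). The intervals of Mir467e, Mir669c and Mir669o overlap each other and lie apart from that of Mir467d.

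Among tested members at the near end of the array, log2 ratios ran from -0.38 to -1.73. Mir669e had the largest difference of the detected members, 3.31-fold higher in replicate 1 (log2 ratio -1.73, exact 95% interval -2.26 to -1.24, exact binomial adjusted p = 1.38e-13). Mir669l was 2.03-fold higher in replicate 1 (-1.02, -1.26 to -0.79). Mir467c had the smallest difference of those higher in replicate 1, 1.30-fold (-0.38, -0.63 to -0.12, exact binomial adjusted p = 0.00629). Mir669h, at the far end of the array (chr2:10518155-10518279), had 21 counts in replicate 1 and 1 in replicate 2. Its log2 ratio of -3.87 has an interval of -9.80 to -1.79.

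**Figure D3:**
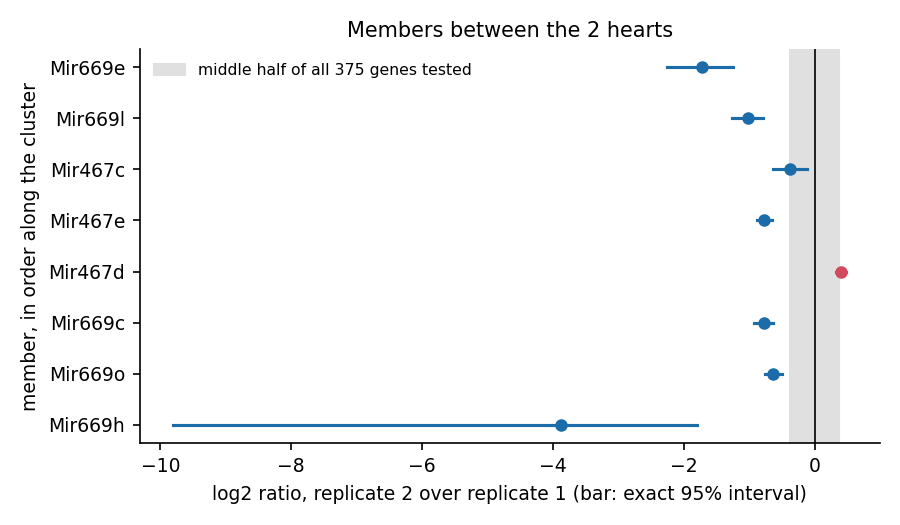
Log2 ratio of replicate 2 over replicate 1 for the 8 members tested, in order along the cluster from the near end at the top, with exact 95% intervals as bars. The grey band runs from the lower to the upper quartile of all 375 genes tested (-0.37 to 0.37). Mir467d lies to the right of 0 and the other 7 to its left, from -0.38 for Mir467c to -3.87 for Mir669h.

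The make-up of the cluster differed accordingly. Mir467d supplied 31.0% (exact 95% interval 29.9 to 32.1) of the cluster's counts in replicate 1 and 50.1% (48.8 to 51.4) in replicate 2. Mir467e supplied 23.1% and 16.6%, Mir669o 16.6% and 13.1%, and Mir669c 16.1% and 11.4%. Mir669l supplied 6.48% and 3.91%, and Mir669e 2.04% and 0.748%. Mir467c kept nearly the same share, 4.17% (3.71 to 4.66) and 3.93% (3.45 to 4.46). Without Mir467d the cluster held 4835 and 2935 counts, or 1135 and 640.4 CPM, a log2 ratio of -0.76, while the whole cluster had a log2 ratio of -0.29.

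**Figure D4:**
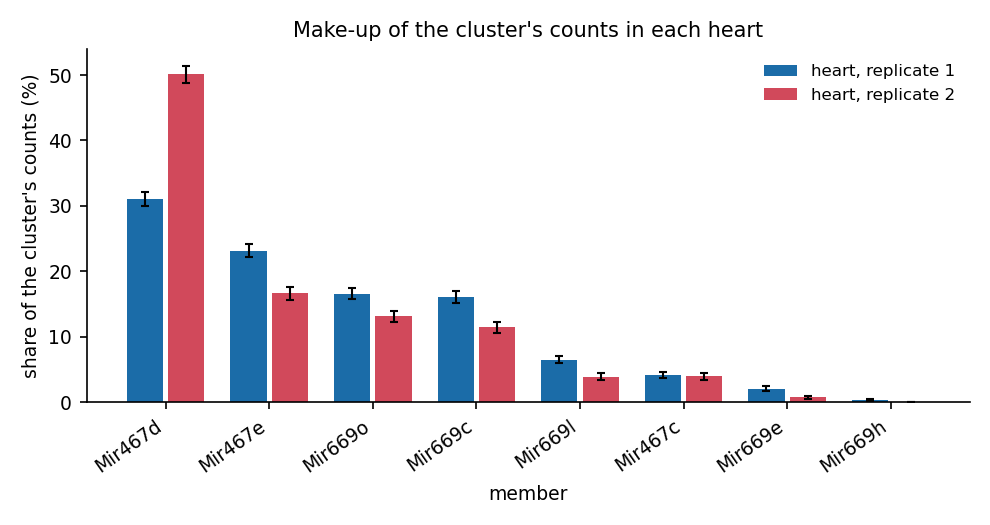
Share of the cluster's counts in percent supplied by each of the 8 members tested, in replicate 1 and replicate 2, with exact 95% Clopper-Pearson intervals as error bars. The bar of Mir467d goes from 31.0% in replicate 1 to 50.1% in replicate 2, and those of Mir467e, Mir669o, Mir669c, Mir669l, Mir669e and Mir669h are lower in replicate 2, with intervals of Mir467c that overlap.

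Ratios within a library do not depend on its scaling. Mir467d exceeded Mir467e by 1.34-fold (exact 95% interval 1.26 to 1.43) in replicate 1 and by 3.01-fold (2.80 to 3.24) in replicate 2, so the intervals do not overlap. The hairpins of the pair, 87 and 85 nt long, differ by 7 edits (92.0% identity) and share a run of 34 nt. Mir467d exceeded Mir467c by 7.43-fold and 12.7-fold (6.58 to 8.43 and 11.1 to 14.6). In contrast Mir467e exceeded Mir669c by 1.44-fold (1.33 to 1.55) and 1.45-fold (1.31 to 1.60), nearly the same in both hearts though the genes are of different families. Mir669o exceeded Mir669c by 1.03-fold (0.949 to 1.12) in replicate 1, where the interval holds equality, and by 1.14-fold (1.03 to 1.27) in replicate 2.

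The hearts also differed in marker miRNAs. The cardiac muscle list stood at 9644 CPM in replicate 1 and 6536 in replicate 2, and the smooth muscle list (Mir143, Mir145a) at 53735 and 35952. Every gene of these lists was lower in replicate 2, but by unequal amounts. Mir143 stood at 51605 and 33943 CPM and Mir145a at 2130 and 2009. Mir208a stood at 2957 and 1367 CPM, Mir499 at 5442 and 4126, and Mir208b at 1245 and 1043. The endothelial Mir126a stood at 86321 and 137860 CPM and the erythroid pair Mir451a and Mir144 at 268 and 749.5. White blood cell markers (Mir142, Mir223, Mir150) summed to 889 and 864 CPM, but went different ways. Mir150 stood at 651 and 594 CPM, Mir142 at 140 and 168, and Mir223 at 98.1 and 102. The liver marker Mir122 stood at 76.3 and 141 CPM and the skeletal muscle marker Mir206 at 19.0 and 15.3. The part of these shifts in the members' differences was not tested.

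Family genes elsewhere in the genome were credited with no counts, and why was not tested. Any multimapping reads from them would be credited to no gene. The 10 Mir297, Mir466, Mir467 and Mir669 genes outside Sfmbt2 had 0 counts in both hearts. None of these 10 lacked an own window, and their median share of own windows was 77.0%, above that of 5 of the 7 detected members. All counts that the tables credit to genes of these names were on members of the Sfmbt2 array, and where their reads arose was not tested.

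Another large miRNA array at a locus known as imprinted, the distal Dlk1-Dio3 genes from Mir379 to Mir410 on chromosome 12, serves as a comparison. Imprinting of either array was not examined in these hearts. Of its 38 genes 32 were detected (84.2%), against 15.7% of all genes in the tables. It held 44746 and 35674 counts, a share of 0.914% ± 0.192 (SD, n = 2), and no gene there lacked an own window. In the test between hearts 17 of its 32 tested genes passed, near the 55.2% of all genes tested. Of these, 10 were higher in replicate 1 (29.1% of all genes tested) and 7 in replicate 2 (26.1%). The median log2 ratio of the 32 was -0.16. The Sfmbt2 members' 7 and 1 are given beside these as counts alone, and whether the arrays differ between hearts was not tested.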

How the data were processed

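MicroRNA-seq reads of 2 hearts were used as the authors deposited them, as raw read counts per miRNA gene, 1 table per library, on mm10 with GENCODE M21 per the file headers. Which aligner and counter were run is not given in the sources used here. Every table has 3 count columns (without strand, gene strand, opposite strand) and 4 category rows, which were kept out of library sizes. The gene-strand counts were used. CPM and shares are over counts on named genes, with exact Clopper-Pearson intervals.

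Members were found by position in the M21 annotation. The members, lists and tests were chosen with earlier results of these data known. Genes named are all members with 10 or more counts in both hearts, the 3 largest and 3 smallest log2 ratios, and the leading member of each printed seed. Members given as further examples were named after their values were seen.

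Libraries were compared with trimmed mean of M values (TMM) factors (edgeR 4.0.16, R 4.3.3), a prior count of 0.5 and an exact binomial test with Benjamini-Hochberg adjustment (Python 3.11.15, scipy 1.17.1, statsmodels 0.14.6), tested on simulated data. DESeq2 1.42.0 size factors were an alternative. Replicate numbers name separate hearts, and p-values measure counting error alone.

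Whether a mature form occurs at 1 genome position was to be counted from the assembly. No genome was used here, so runs shared between the M21 hairpins took its place. Mature sequences are from RefSeq.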

Additional observations from a re-analysis of the deposited data

How the results depend on the processing

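Of 109 values under alternatives, 18 leave out a heart, which cannot move a mean of 2 by more than 1 SD (share 0.128% to 0.164%, 7 or 8 members detected). Of the other 91, 75 were kept, 16 moved and 0 were lost or changed sign, and 11 of the 16 are CPM values under another column or denominator. The cluster's share was 0.207% in the column without strand, where its own counts are the same and the total is smaller, 0.0613% of all reads, and 0.173% without the most abundant gene. These shifts come from the denominator. At 1 or more counts in both hearts 12 members were detected. When a 2-fold difference was required as well, 3 members differed, Mir669e, Mir669l and Mir669h. The call of Mir669h was fixed by its filter, and Mir669l fell under 2-fold with DESeq2 size factors (log2 ratio -0.98). Mir669h aside, whose call its filter fixed, the 7 other tested members passed under TMM factors, DESeq2 size factors and total counts, and 7 of 7 passed at a summed count of 100 or more. The log2 ratio of Mir669h was -2.96 with a prior count of 2. Members with no own window numbered 54 at windows of 18 and 20 nt, 53 at 25 nt and 54 on the same strand alone, all 4 chosen after seeing the data. The 2 alternatives on mature forms in the genome were not run. No paired analysis was possible because the hearts form 1 group. Depth limits members near 0.704 CPM.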
